A study of Homo sapiens with 4 samples.

Results

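The genes described here are the sensors of double-stranded RNA and the signalling genes that act directly after them: DDX58 (the gene of RIG-I), IFIH1 (MDA5), DHX58 (LGP2), TLR3, EIF2AK2 (PKR), MAVS, TBK1, IRF3, IRF7 and IFNB1. They were chosen by symbol for their place in the pathway, as a check on the sensing of duplex RNA in an siRNA experiment. Earlier results of these data were known when the genes were chosen. Of the 10 genes, 9 were found among the 36359 genes of the count table, and the level of IFNB1 was not analysed here. The cells were ACHN, a human line derived from a renal cell carcinoma, and their RNA was sequenced after they had received either a control siRNA (siNC, 2 libraries) or siRNA against PRR11 (siPRR11, 2 libraries). They were grown in MEM with fetal bovine serum, and both groups received their siRNA with a Lipofectamine reagent. The study lists 2 siPRR11 duplexes, and which of them each library received is not given in the sources used here. No library from untransfected cells was analysed here, so the comparison sets one siRNA against another and does not measure the response to transfection itself. The labels do not say whether the libraries of a group came from separate cultures, so the p-values measure the spread between these libraries only.

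Duplex RNA in the cytoplasm is bound by the RIG-I-like helicases. RIG-I prefers short duplexes with a triphosphate or diphosphate end, MDA5 prefers long duplexes, and LGP2, which lacks the signalling domains of the other two, modulates both. RIG-I and MDA5 signal through the mitochondrial adaptor MAVS to the kinase TBK1, which phosphorylates the transcription factors IRF3 and IRF7, and these switch on IFNB1 and other interferon genes. TLR3 binds duplex RNA in endosomes, and PKR is a kinase that is activated by duplex RNA and then phosphorylates the translation factor eIF2 alpha. Several of these genes are themselves induced by interferon, so that their mRNA is often read as a sign of an ongoing response. Synthetic siRNAs without modification are a known, sequence-dependent trigger of these sensors.

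The genes that interferon induces are bound by IRF and STAT proteins at repeats of the letters GAAA. The promoters in the RefSeq table (GRCh38.p14, 250 bases before to 50 after the start of the gene) included 7 of the 10 genes, and DHX58, IRF3 and IRF7 had no entry. They were searched on both strands for the core of the interferon-stimulated response element (ISRE), which is GAAA, any 2 bases and GAAA, and for the shorter IRF motif AANNGAAA, which every ISRE core contains. The ISRE core occurs in 3.57% of all 35116 promoters of the table and AANNGAAA in 22.8%. Among these 7 genes, the ISRE core was found in EIF2AK2, IFIH1 and TLR3. DDX58 held 3 matches to AANNGAAA and IFNB1 held 2, and neither had a match to the longer motif. No match to either motif was found in the windows of MAVS and TBK1. One match is shown for each of the sensor genes EIF2AK2, IFIH1, TLR3 and DDX58. Those of EIF2AK2, IFIH1 and TLR3 are ISRE cores whose first base lies at -6, -21 and -4 from the start. That of DDX58 is the shorter motif, with a single GAAA, and lies farther away, at -202. Each line gives 30 bases in the direction of the gene, and capitals mark the motif, which lies on the opposite strand in TLR3. The windows lie at chr2:37156967-37156996 (minus strand), chr2:162318686-162318715 (minus strand), chr4:186069142-186069171 (plus strand) and chr9:32526380-32526409 (minus strand).
EIF2AK2: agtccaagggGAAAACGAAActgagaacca
IFIH1: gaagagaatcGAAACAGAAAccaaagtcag
TLR3: caagctttacTTTCACTTTCgagagtgccg
DDX58: ggtgcggagggAAACGAAActagcccgagg

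Counted reads per library ranged from 59003839 to 92612749. For changes between groups, counts were divided by the library size, as CPM, with TMM factors, and the groups were compared by the quasi-likelihood test of edgeR, with p-values adjusted by the Benjamini-Hochberg method over 21630 genes. PRR11, the target, was at 41.3 and 40.4 CPM in the siNC libraries and at 15.3 and 14.0 CPM in the siPRR11 libraries, so the labels of the libraries and the level of the target go together. Its log2 fold change was -1.48 (SE 0.0909, adjusted p = 3.35e-06). Over all genes tested, 16.7% had an adjusted p under 0.05, 1645 higher and 1977 lower in siPRR11. With limma on log2(RPKM + 1) the split was 1091 higher and 684 lower. The kidney epithelial markers PAX8, PAX2, KRT8 and KRT18 were each above 18 CPM in every library, while CDH6 had between 2 and 6 counts per library. Of 10 tested markers of this kind, 2 rose and 2 fell, among them CDH1 (E-cadherin) with a log2 fold change of 0.54 (adjusted p = 0.0021) and EPCAM with -0.65 (adjusted p = 0.000257). The leukocyte markers PTPRC, CD3E and HLA-DRA had at most 4 counts in any library, and 6 of the 9 leukocyte markers were under 1 CPM in every library. The summed level of the 9, from 50.6 to 66.9 CPM, came mostly from CD68, a lysosomal gene. CD68 shares 81.7% of its exonic bases with other genes of its strand. Of 4 leukocyte markers tested, 1 rose past the threshold. Of the 6 endothelial and fibroblast markers, COL1A1, a collagen gene, was at 49.5 and 43.0 CPM in siNC and at 96.2 and 76.0 CPM in siPRR11, a log2 fold change of 0.90 (adjusted p = 0.000329). The other 5 were under 1 CPM in every library. The part of these cell type markers in the changes below was not tested.

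Of the 9 sensor and signalling genes, IRF7 rose on silencing of PRR11, and none of the other 8 passed the test. IRF7, the factor that amplifies interferon production once it has been induced, was at 1.15 and 1.14 CPM in the siNC libraries and at 2.504 and 2.526 CPM in the siPRR11 libraries. The siPRR11 libraries lay above both controls and the libraries of a group lay close together, with SDs of 0.00835 and 0.0157 CPM (n = 2 each). The log2 fold change was 1.13 (SE 0.195, adjusted p = 0.00229), a 2.2-fold rise with a 95% interval from 1.63 to 2.95. These levels rest on 94 and 66 counts in siNC and on 236 and 216 counts in siPRR11, so IRF7 was a weakly expressed gene in both groups. Counts this low carry a counting error larger than these SDs, so how close the libraries lay is not a sign of precision. Its exons (GRCh38, chromosome 11, 612553 to 615999, minus strand) share no base with exons of another gene in the table. Leaving out any 1 library gave a rise from 1.13 to 1.14, and it was 0.47 on the log2(RPKM + 1) scale, which understates changes of low genes. One of 9 genes is 11.1%, against 16.7% of all genes tested (7.61% higher and 9.14% lower), and the median log2 fold change of the 9 genes was 0.03 against 0.002 over all genes.

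**Figure D1:**
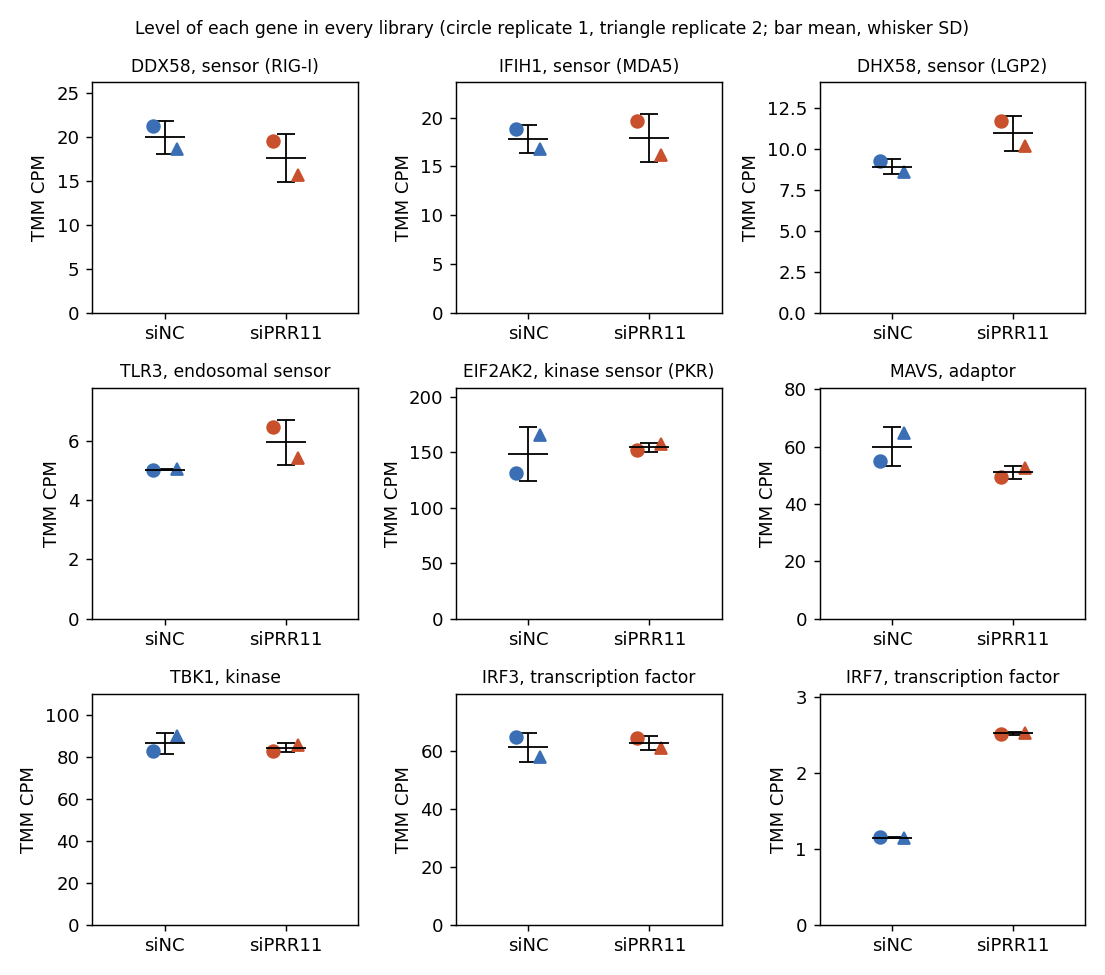
Level of the 9 sensor and signalling genes in each library, in TMM-normalized CPM on axes that start at 0. Circles and triangles are replicates 1 and 2, horizontal bars are group means and whiskers are SDs (n = 2). The siPRR11 libraries of IRF7 (2.504 and 2.526 CPM) lie far above its siNC libraries (1.15 and 1.14 CPM), while none of the other 8 genes passed the test.

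The cytoplasmic helicases were expressed in every library and none passed the test. DDX58 (chromosome 9, 32455705 to 32526324) was at 21.3 and 18.6 CPM in siNC and at 19.5 and 15.7 CPM in siPRR11, and the groups overlapped. Its log2 fold change was -0.18 (SE 0.119, adjusted p = 0.338), with a 95% interval from a 0.736-fold to a 1.06-fold level. The lower siPRR11 library of DDX58 was below both controls and the higher one lay between them. IFIH1 (chromosome 2, 162267079 to 162318703) was at 18.8 and 16.8 CPM in siNC and at 19.7 and 16.2 CPM in siPRR11. Its groups overlapped with nearly equal means, and the log2 fold change was 0.0089 (SE 0.113, adjusted p = 0.972), with an interval from 0.847-fold to 1.19-fold. The sign of this small value changed when a library was left out, from -0.14 without siPRR11 replicate 1 to 0.14 without siPRR11 replicate 2. DHX58 (chromosome 17, 42101404 to 42112733) was at 9.25 and 8.57 CPM in siNC and at 11.7 and 10.2 CPM in siPRR11. Both siPRR11 libraries of DHX58 lay above both controls, and the log2 fold change was 0.29 (SE 0.117). Its unadjusted p of 0.0274 did not pass after adjustment over all genes (adjusted p = 0.111). With the replicate number as a block its adjusted p was 0.00951.

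The endosomal sensor and the kinase sensor did not pass the test either. TLR3 (chromosome 4, 186069152 to 186088069) was at 5.02 and 5.05 CPM in siNC and at 6.48 and 5.41 CPM in siPRR11. The groups did not overlap, but siPRR11 replicate 2 was close to the controls, and the log2 fold change of 0.24 (SE 0.138, adjusted p = 0.269) was within the error. EIF2AK2 (chromosome 2, 37099210 to 37157065) was the member with the most counts, between 9623 and 14311 per library. It was at 131.3 and 166.0 CPM in siNC and at 151.8 and 157.2 CPM in siPRR11, so that the siPRR11 libraries lay between the controls. The log2 fold change was 0.057 (SE 0.0994, adjusted p = 0.753), with an interval from 0.895-fold to 1.21-fold. Because the controls differed, it was -0.10 without siNC replicate 1 and 0.23 without siNC replicate 2, and neither passed the test (adjusted p = 0.408 and 0.0543). Of the exonic bases of EIF2AK2, 4.06% are shared with genes of the opposite strand.

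The adaptor and the kinase that join the sensors to the IRF factors did not pass the test. MAVS (chromosome 20, 3846799 to 3876123) was at 55.1 and 64.9 CPM in siNC and at 49.4 and 52.7 CPM in siPRR11. Both siPRR11 libraries lay below both controls, and the log2 fold change was -0.23 (SE 0.0921, adjusted p = 0.111). The value for MAVS moved with either control: without siNC replicate 1 the log2 fold change was -0.35 and passed the test (adjusted p = 0.0079), and without siNC replicate 2 it was -0.11 (adjusted p = 0.451). With the replicate number as a block its adjusted p was 0.00384. TBK1 (chromosome 12, 64451880 to 64502108) was at 83.1 and 90.2 CPM in siNC and at 83.0 and 86.0 CPM in siPRR11. The groups overlapped, and the log2 fold change of -0.036 (SE 0.0773, adjusted p = 0.8) had the smallest SE of the 9 genes and an interval from 0.868-fold to 1.1-fold. Of the exonic bases of TBK1, 14.7% are shared with a gene of the opposite strand.

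IRF3, the factor that is already present before any response and is switched on by TBK1, was at 65.0 and 57.9 CPM in siNC and at 64.6 and 61.1 CPM in siPRR11. Both siPRR11 libraries lay between the controls, and the log2 fold change was 0.031 (SE 0.0838, adjusted p = 0.846), with an interval from 0.9-fold to 1.16-fold. IRF3 lies on chromosome 19 from 49659569 to 49665875, and shares 19.3% of its exonic bases with BCL2L12 of the opposite strand. mRNA levels carry no information on the phosphorylation of TBK1, IRF3, IRF7 or PKR. In all, 4 of the 9 genes did not overlap between groups, IRF7, DHX58 and TLR3 higher and MAVS lower in siPRR11. Over all genes tested, 58.4% did not overlap. The intervals of the 8 genes that did not pass lay within 0.736-fold and 1.46-fold.

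**Figure D2:**
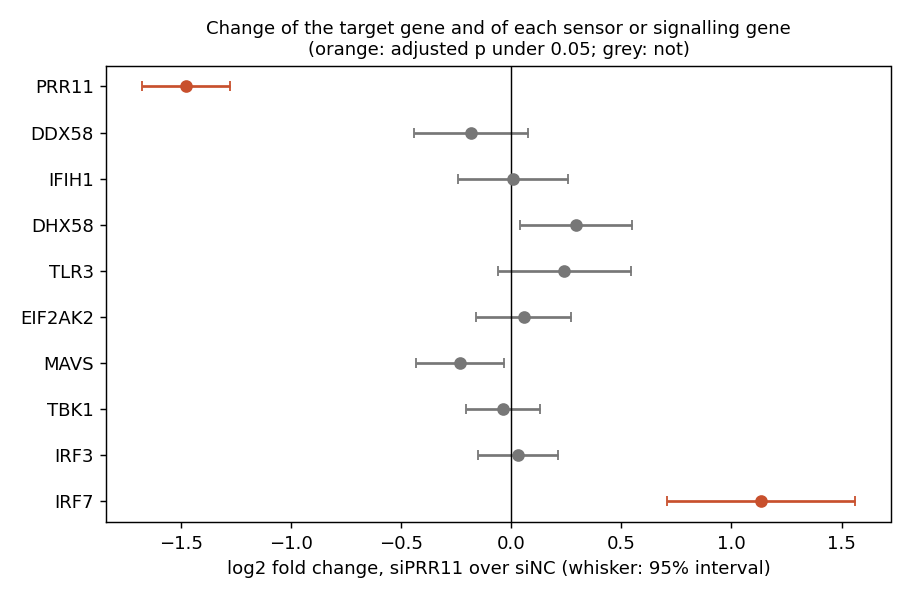
Log2 fold change of PRR11 and of the 9 sensor and signalling genes, siPRR11 over siNC, from edgeR's quasi-likelihood test. Whiskers are 95% intervals, and orange marks an adjusted p under 0.05, reached by PRR11 (-1.48) and IRF7 (1.13). The intervals of DHX58 and MAVS leave out 0 before adjustment over all genes.

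Levels were compared between genes in the authors' RPKM, which divides by exonic length. TBK1 had the highest level in siNC cells, 17.9 ± 1.03 RPKM (SD, n = 2), followed by IRF3 at 15.9 ± 1.32 and EIF2AK2 at 13.6 ± 2.23 RPKM (SD, n = 2 each). The siNC libraries of IRF3 and EIF2AK2 overlapped, so their order is not resolved. MAVS at 5.01 ± 0.575, DDX58 at 4.51 ± 0.431 and IFIH1 at 3.87 ± 0.308 RPKM (SD, n = 2 each) formed a lower tier, in which MAVS and DDX58 overlapped. DHX58 followed at 2.28 ± 0.125 RPKM, then TLR3 at 0.736 ± 0.00317 and IRF7 at 0.428 ± 0.0035 RPKM (SD, n = 2 each). Among the receptors, the cytoplasmic helicases were above 2 RPKM in every library and TLR3 was under 1 RPKM, while TICAM1, the adaptor of TLR3, was at 2.83 to 3.28 RPKM. In siPRR11 cells the mean of IRF7, 0.972 ± 0.00394 RPKM (SD, n = 2), came to lie above the 0.736 of TLR3 in siNC cells and within the range of TLR3 in siPRR11 cells, 0.817 to 0.981 RPKM. The exonic length joins all annotated transcripts, so genes with long untranslated ends such as MAVS and EIF2AK2 may read lower than they are per transcript.

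**Figure D3:**
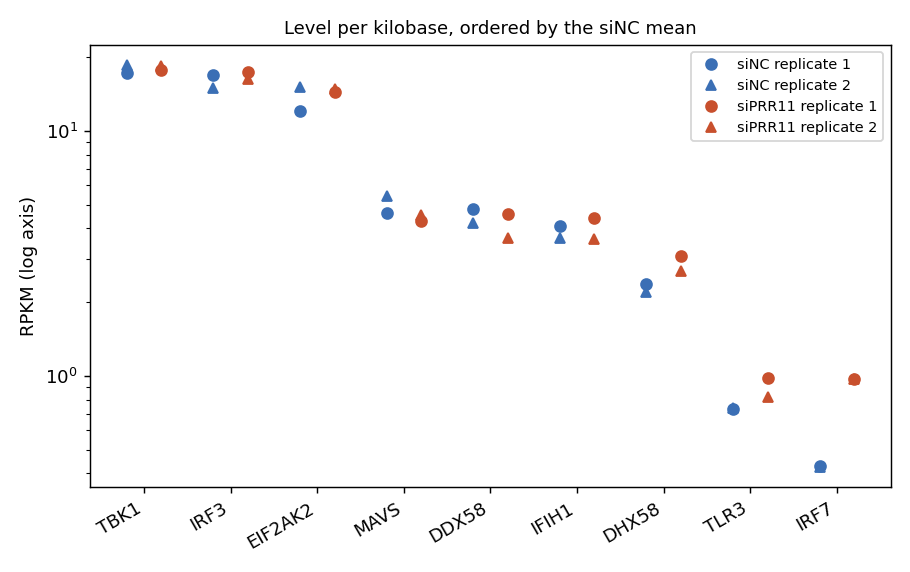
RPKM of each gene in the 4 libraries on a log axis, ordered by the siNC mean. TBK1, IRF3 and EIF2AK2 lie between 12.0 and 18.6 RPKM, the helicases and MAVS between 2.19 and 5.42, and TLR3 and IRF7 under 1.

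Of the interferon genes listed, only IFNE and IFNL3 were analysed here, and both were at or near 0 counts. IFNE lies on chromosome 9 from 21480839 to 21482313, between KLHL9 and MTAP, whose counts are given below. IFNE had 0 counts in all 4 libraries, which allows a level of up to 0.0324 to 0.0508 CPM in a library (3 counts, counting error only). IFNL3 had 0 counts in 3 libraries and 2 counts in siPRR11 replicate 2, which is under the limit that a count of 0 allows. IFNB1 lies on chromosome 9 from 21077104 to 21077942 (RefSeq, GRCh38.p14). Counts of 4 genes on its sides are given here, and these neighbours were chosen after their values were seen. FOCAD, from 20658309 to 20995955, had 4, 0, 0 and 4 counts in siNC replicates 1 and 2 and siPRR11 replicates 1 and 2, and HACD4, from 20999515 to 21031636, had 0, 0, 1 and 2. On the other side, KLHL9, from 21329671 to 21335380, had 6, 2, 12 and 12 counts, and MTAP, an enzyme of methionine salvage that most tissues express, had 18, 10, 25 and 22 counts over 14617 exonic bases.

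The rest of the pathway was followed in 9 lists that hold 139 genes without the members, of which 124 were tested. The lists were written with earlier results of these data known, so their shares are descriptive only. Past the threshold were 26 genes, 17 higher and 9 lower in siPRR11, which is 21.0% against 16.7% of all genes, and the median log2 fold change over the 124 tested genes was 0.028. Among partners of the sensors, 2 of 20 genes changed. ZCCHC3, a co-receptor that helps RIG-I and MDA5 bind RNA, rose by 0.67 (SE 0.12, adjusted p = 0.00303), from 11.6 and 13.6 CPM to 18.1 and 21.9 CPM. DHX33, a helicase also described as an RNA sensor, fell by 0.37 on the log2 scale (SE 0.0914, adjusted p = 0.0164). The ubiquitin ligases that activate RIG-I did not pass the test, with log2 fold changes of -0.16 for TRIM25 (adjusted p = 0.225) and -0.28 for RNF135 (adjusted p = 0.0771). The PKR activator PRKRA was at -0.026 (adjusted p = 0.867). The call of DHX33 was lost with limma on log2(RPKM + 1) (adjusted p = 0.104) or log2(RPKM + 0.1) (0.0931), and without siNC replicate 2 (adjusted p = 0.0515), siPRR11 replicate 1 (0.0536) or siPRR11 replicate 2 (0.101).

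Of 22 adaptor, kinase and NF-kB genes, 3 rose and 2 fell. IKBKE, the inducible sister kinase of TBK1, rose from 17.4 and 11.5 CPM to 22.9 and 20.8 CPM, a log2 fold change of 0.59 (SE 0.155, adjusted p = 0.022). All siPRR11 libraries of IKBKE lay above the controls, but the controls differed, and the rise was 0.33 without siNC replicate 2 and 0.93 without siNC replicate 1. NFKB2 rose by 0.47 and CHUK by 0.29 (adjusted p = 0.0158 and 0.0229), the first a subunit of NF-kB and the second the kinase IKK alpha. The rise of NFKB2 was 0.30 without siNC replicate 2. With limma on log2(RPKM + 1) the calls of IKBKE (adjusted p = 0.104) and NFKB2 (0.0899) were lost, and with log2(RPKM + 0.1) as well (0.0942 and 0.0785). TANK and AZI2, scaffolds that bind TBK1, fell by 0.32 and 0.46 on the log2 scale (adjusted p = 0.0234 and 0.00664). AZI2 was at 27.8 and 31.1 CPM in siNC and at 20.8 and 22.1 CPM in siPRR11. Its groups did not overlap, which held for 58.4% of all genes tested. Of the exonic bases of AZI2, 55.4% are shared with CMC1 of the opposite strand. TICAM1, the adaptor of TLR3, was at -0.11 (adjusted p = 0.58), and TRAF3, which links MAVS to TBK1, had -0.29 (adjusted p = 0.0647). STING1 (TMEM173 in the table), the adaptor of the DNA-sensing route, had only 14 to 28 counts per library. TANK and AZI2 did not pass with limma on log2(RPKM + 1) (0.106 and 0.077) or log2(RPKM + 0.1) (0.0987 and 0.0661). Without siPRR11 replicate 1 the calls of CHUK (adjusted p = 0.139), TANK (0.0821) and AZI2 (0.0511) were lost. The calls of CHUK and TANK were also lost without siPRR11 replicate 2 (0.172 and 0.206), and that of TANK without siNC replicate 1 (0.054).

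**Figure D4:**
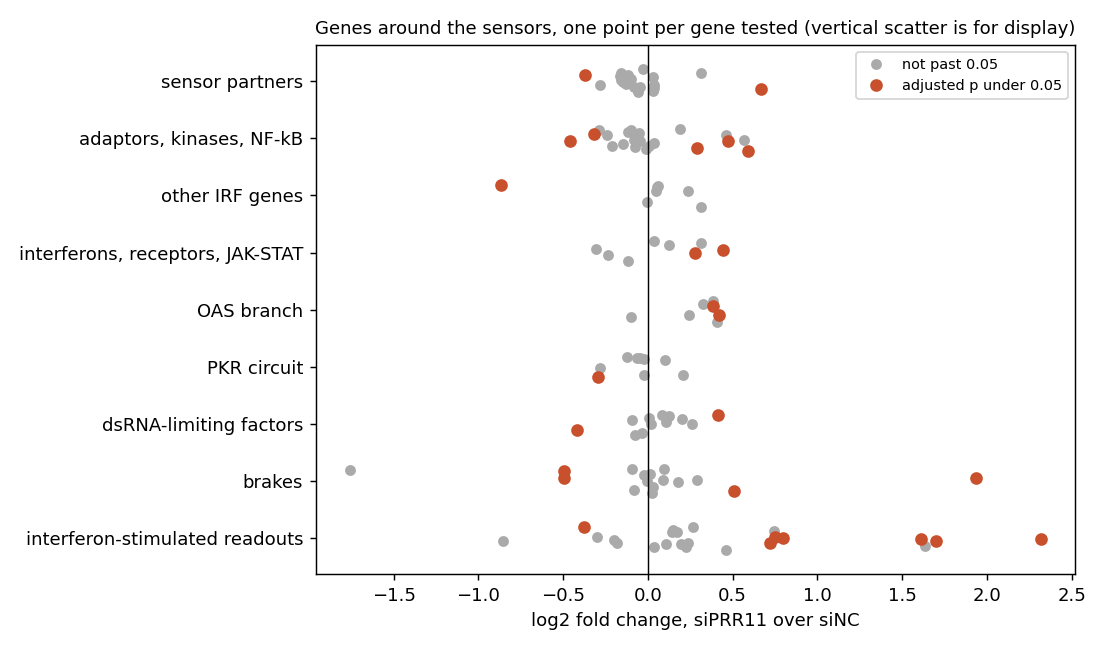
Log2 fold change of the 124 tested genes in 9 lists around the sensors, siPRR11 over siNC, one point per gene with orange for an adjusted p under 0.05. The largest rises are among the interferon-stimulated readouts and the brakes, and most genes of the other lists lie near 0.

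Of 7 other IRF genes tested, 1 changed. IRF5, a factor of inflammatory responses, fell from 15.0 and 10.3 CPM to 7.52 and 6.48 CPM, a log2 fold change of -0.86 (SE 0.161, adjusted p = 0.00378), so that IRF5 and IRF7 moved in opposite directions. The log2 fold change was -0.56 without siNC replicate 1 and -1.10 without siNC replicate 2, past the threshold in both, and did not pass with limma on log2(RPKM + 1) (adjusted p = 0.0913) or log2(RPKM + 0.1) (0.0734). IRF1 and IRF9 showed log2 fold changes of 0.31 and 0.062 (adjusted p = 0.147 and 0.746), with overlapping groups. Of the exonic bases of IRF9, 48.4% are shared with a gene of the same strand. Among interferon ligands, receptors and their signalling genes, 2 of 8 genes rose. STAT2, which joins IRF9 in the factor ISGF3, was at 28.6 and 21.5 CPM in siNC and at 37.3 and 31.0 CPM in siPRR11, a log2 fold change of 0.45 (SE 0.131, adjusted p = 0.0375). JAK1, the kinase of the interferon receptors, rose by 0.28 (adjusted p = 0.0194). The receptor genes IFNAR1 and IFNAR2 had log2 fold changes of -0.31 and 0.12 (adjusted p = 0.0995 and 0.378). IFNAR2 shares 39.1% of its exonic bases with the opposite strand and 9.36% with the same strand. STAT2 lost its call with limma on log2(RPKM + 1) (adjusted p = 0.131) or log2(RPKM + 0.1) (0.118), and without siNC replicate 2 (adjusted p = 0.123) or siPRR11 replicate 1 (0.177), and JAK1 without siPRR11 replicate 1 (0.102) or replicate 2 (0.112).

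Among the interferon-stimulated readouts that are commonly induced through IRF3, IRF7 or ISGF3, more genes were higher than lower. Of 23 tested, 6 rose, 1 fell and 16 did not pass, so 26.1% rose against 7.61% of all genes. Positive log2 fold changes were found for 18 of the 23 and negative ones for 5, against 10875 and 10755 over all genes, and the list's median was 0.23. This list was written with earlier results of these data known, so its difference from all genes is not independent evidence of a response. IFIT1, which binds viral RNA ends, was at 19.3 and 14.4 CPM in siNC and at 31.4 and 27.1 CPM in siPRR11, a log2 fold change of 0.79 (SE 0.131, adjusted p = 0.0018). ISG15, a ubiquitin-like modifier, was at 19.9 and 16.8 CPM and at 31.7 and 28.9 CPM, a change of 0.72 (SE 0.105, adjusted p = 0.000877). BST2 (tetherin) was at 1.03 and 0.931 CPM and at 2.95 and 3.06 CPM, a change of 1.61 (SE 0.194, adjusted p = 0.000281). None of these 3 genes overlapped between groups, which held for 58.4% of all genes tested. IFI6 rose by 0.75 as well (adjusted p = 0.00217). RSAD2 and XAF1, named because they complete the 6, rose by 1.70 and 2.32 from under 0.5 CPM (adjusted p = 0.00665 and 0.00267). XAF1 did not pass with limma on log2(RPKM + 1) (change of 0.13, adjusted p = 0.0856), and shares 38.3% of its exonic bases with a gene of the opposite strand.

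Most readouts did not pass the test. MX1, a classical interferon-induced GTPase, was at 31.8 and 28.7 CPM in siNC and at 31.8 and 35.5 CPM in siPRR11, with overlapping groups (log2 fold change 0.15, adjusted p = 0.313). IFIT5 fell by 0.38 on the log2 scale (adjusted p = 0.019), and this call was lost without siPRR11 replicate 1 (adjusted p = 0.0754) or replicate 2 (0.165), and with limma on log2(RPKM + 1) (0.0937) or log2(RPKM + 0.1) (0.0833). For 13 of the 23 readouts siNC replicate 1 was above siNC replicate 2, and the part of the difference between the controls in these changes was not tested beyond leaving each library out. The rises of IFIT1, ISG15, BST2, IFI6 and RSAD2 passed in every alternative run.

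**Figure D5:**
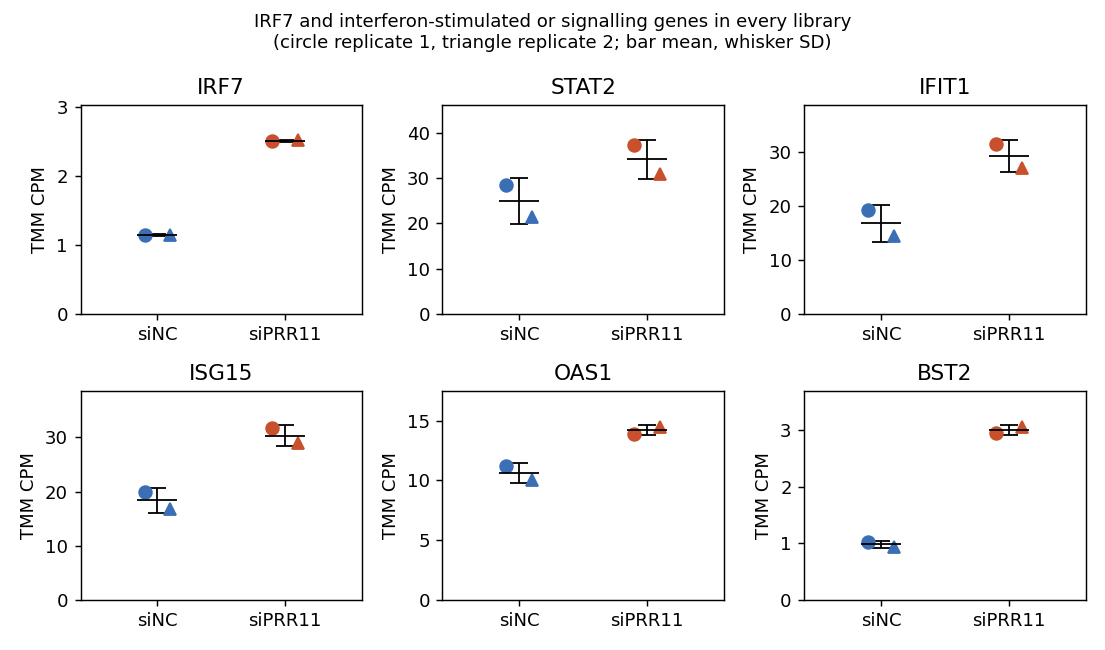
IRF7, STAT2, IFIT1, ISG15, OAS1 and BST2 in each library, in TMM-normalized CPM on axes that start at 0, with group means and SDs (n = 2). Both siPRR11 libraries lie above both siNC libraries in each panel. The genes shown were picked from those that rose past the threshold, so this separation follows in part from the choice. Over all genes tested, 58.4% did not overlap between groups. The narrowest spread within groups, in CPM, is that of IRF7 and BST2, which also have the lowest levels shown. The siNC libraries of STAT2 and IFIT1 differ most.

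Among the effectors that duplex RNA activates, 2 OAS genes rose and 1 gene around PKR fell. Of 7 genes of the OAS branch, in which a bound duplex switches on the OAS enzymes and then the cutting of RNA, OAS1 and OAS3 rose, by 0.42 and 0.39 (adjusted p = 0.0193 and 0.0103), and 6 of the 7 had positive values. OAS1 was at 11.2 and 10.0 CPM in siNC and at 13.9 and 14.5 CPM in siPRR11. Of 9 genes around PKR, only PPP1R15A, the phosphatase subunit GADD34 that reverses the phosphorylation of eIF2 alpha, changed, and it fell by 0.30 on the log2 scale (adjusted p = 0.0285). EIF2S1, which encodes eIF2 alpha, was at 0.099 on the log2 scale (adjusted p = 0.41). Without siPRR11 replicate 1 the calls of OAS1 (adjusted p = 0.0597), OAS3 (0.148) and PPP1R15A (0.118) were lost. With limma on log2(RPKM + 1) the calls of OAS1 (0.0759), OAS3 (0.0581) and PPP1R15A (0.122) were lost. OAS1 and PPP1R15A were also lost with limma on log2(RPKM + 0.1) (0.0667 and 0.116) and without siNC replicate 2 (0.0589 and 0.109) or siPRR11 replicate 2 (0.117 and 0.0992).

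Among genes that limit duplex RNA or end the response, those past the threshold moved both ways. Past it were 2 of 12 limiting factors (16.7%) and 4 of 16 brakes (25%), against 16.7% of all genes tested. Of 12 limiting factors, SAMHD1, a dNTP hydrolase with a role in keeping interferon low, rose by 0.41 (adjusted p = 0.0054). STAU1, a protein that binds duplex RNA in mRNAs, fell from 194.5 and 206.1 CPM to 150.8 and 149.2 CPM, a log2 fold change of -0.42 (SE 0.072, adjusted p = 0.00238). ADAR, the enzyme that edits adenosines in duplex RNA and keeps MDA5 quiet, was at 266.6 and 266.1 CPM in siNC and at 258.9 and 246.6 CPM in siPRR11, and did not pass (log2 fold change -0.076, adjusted p = 0.52). Of 16 brakes of the pathway, SOCS1, an inhibitor of JAK kinases, rose most, from 0.416 and 0.379 CPM to 1.61 and 1.45 CPM, a log2 fold change of 1.93 (SE 0.269, adjusted p = 0.000662). USP18, which removes ISG15 from proteins and blocks the interferon receptor, rose by 0.51 (adjusted p = 0.00833). ATG5 and ATG12, autophagy proteins whose conjugate inhibits RIG-I and MAVS signalling, fell by 0.49 and 0.50 on the log2 scale (adjusted p = 0.00245 and 0.0054). ATG5 was at 30.9 and 31.7 CPM in siNC and at 22.1 and 22.3 CPM in siPRR11. Its groups did not overlap, which held for 58.4% of all genes tested. Of the exonic bases of ATG5, 10.7% are shared with a gene of the same strand. ATG12 lost its call with limma on log2(RPKM + 1) (adjusted p = 0.0884) or log2(RPKM + 0.1) (0.0759). SAMHD1 lost its call without siPRR11 replicate 1 (adjusted p = 0.051), while STAU1, SOCS1, USP18 and ATG5 kept theirs in every alternative run.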

How the data were processed

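Stranded mRNA libraries of ACHN cells were sequenced on a DNBSEQ-T7 instrument. Per the labels and the paper's methods, reads were trimmed with Trimmomatic 0.36, aligned to GRCh38 with STAR and counted per gene with featureCounts (Subread 1.5.1). The annotation release and the strand setting are not given in the sources used here, so reads in overlapping exons are uncertain. The authors deposited raw counts, without normalization, and RPKM values, which equal counts divided by exonic length and column total. Changes were tested on the counts with edgeR 4.0.16 (R 4.3.3): TMM, filterByExpr, condition as the only term, quasi-likelihood test, Benjamini-Hochberg adjustment over 21630 genes, threshold 0.05. SE is the log2 fold change divided by the square root of F, and 95% intervals use the fit's degrees of freedom. The common coefficient of variation was 0.0856. Fits without 1 library assume that the lone library varies like the other group. The alternatives tried were DESeq2 1.42.0, RLE normalization, no filter, the exact test of edgeR, at least 10 counts per library, a replicate block, limma 3.58.1 with a variance trend on log2(RPKM + 1) or log2(RPKM + 0.1), and each library left out. The tests were checked on simulated data. The members, and the lists around them, were chosen with earlier results of these data known. From each list, named genes are a preset group of partners and downstream genes of the members (among them IFIT1, ISG15 and MX1) and up to 3 per direction of those past the threshold whose mean log2 CPM is 0 or more.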

Additional observations from a re-analysis of the deposited data

How the results depend on the processing

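IRF7 passed the test in all 12 alternatives, and of the 8 other genes only DHX58 (replicate block) and MAVS (replicate block, and without siNC replicate 1) passed in any. The sensor and signalling genes past the threshold, 1 in the main analysis, were 3 with the replicate number as a block and 1 to 2 with each library left out. For the genes of the 9 lists, 26 became 52 with the replicate block, 14 and 16 with limma on log2(RPKM + 1) and log2(RPKM + 0.1), and 17 to 37 with each library left out, lowest without siPRR11 replicate 1. Of these 26 genes, 10 passed in every alternative. Some list genes given above as not passing did pass in alternatives that keep all libraries. TRIM25, RNF135, TRAF3, IRF1 and IFNAR1 passed with the replicate block, and TRAF3, IRF1 and IFNAR1 also with no filter. For all genes, 3622 became 6988 with the replicate block, 1775 and 1878 with limma, and 2217 to 4251 with each library left out, lowest without siPRR11 replicate 1. The labels do not say whether replicates of the same number share a batch. The deviations of replicate 1 correlated between groups (r = 0.498 across 14193 genes, which are not independent). With 2 pairs this does not show pairing, so the block is an alternative. Values near 0 changed sign: with each library left out, IFIH1 ranged from -0.14 to 0.14, EIF2AK2 from -0.10 to 0.23, IRF3 from -0.050 to 0.12 and TBK1 from -0.096 to 0.024, and TBK1 was 0.012 with limma at either pseudocount. Apart from IFIH1, EIF2AK2, IRF3 and TBK1, no member changed direction. Why the counts moved was not tested. IRF7 rests on 66 to 236 counts per library and TLR3 on 293 to 611, and the part of counting error in the spread between libraries was not tested.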
